A study of Rattus norvegicus with 18 samples.

Results

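The genes described here encode the SNARE proteins, synaptotagmins, complexins and syntaxin-binding proteins, together with synaptophysin and the synapsins, in primary rat oligodendrocyte (OLG) cultures. They were taken as every probe of the array whose symbol begins with *Syt*, *Stx*, *Vamp*, *Cplx* or *Stxbp* followed by a digit, or is *Snap23*, *Snap25*, *Snap29*, *Snap47*, *Syp*, *Syn1* or *Syn2*. This gave 50 of the 22523 probes on the array, for 47 of the 13337 genes with a named probe, and 24 of these probes, for 23 genes, passed the filter for detection. The question was whether the members known from neurons rise when p38 MAPK is inhibited.

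Oligodendrocyte progenitors (OLPs) of newborn Sprague-Dawley rats were differentiated in culture with PD169316, an inhibitor of the p38α and p38β kinases, or without it. Per the methods of the study, the growth factors PDGF-AA and bFGF kept the progenitors dividing, and their removal started differentiation. Comparisons with day 0 may therefore include this removal as well as time. Total RNA was measured on 18 Illumina RatRef-12 arrays in 6 groups of 3, namely day 0, day 1 PD169316, day 1 control, day 2 PD169316, day 2 control and day 4 PD169316. Controls received the vehicle DMSO per the methods of the study, and no control of day 4 is labelled. The deposited treatment text gives 24 or 48 h, although a day 4 group is labelled. All groups came from 1 strain and 1 published isolation procedure, which shakes progenitors off mixed glial cultures and is known to leave some cells of other types. The labels do not state whether the 3 arrays of a group came from separate cultures, and the p-values given here reflect how far those arrays scatter, part or all of which may be technical.

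Membrane fusion is driven by SNARE proteins on a vesicle and on its target membrane, which zip together into a complex that pulls the membranes into contact. Syntaxin-binding proteins and complexins assist or restrain this assembly, and synaptotagmins couple it to calcium. Neurons use a dedicated set for transmitter release, whereas other SNAREs work in the Golgi, endosomes and lysosomes of every cell, and in oligodendrocytes VAMP3 and VAMP7 are known to carry myelin protein to the cell surface.

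Values are log2 intensities after background correction and quantile normalization, on which a difference of 1 is a doubling of signal. A member was called when the adjusted p of limma, fitted over all 18 arrays and 10574 detected probes, was under 0.05. Between 9789 and 10773 probes were detected per array, meaning a detection p under 0.01. *Pdgfra*, *Olig1*, *Sox10* and *Mbp*, which mark the OLG lineage, were detected on 18 of 18 arrays, as were the astrocyte marker *Gfap* and the neuronal *Tubb3* and *Gad1*, whereas the vesicular glutamate transporter *Slc17a7* was detected on none. In such bulk RNA, fewer cells of a type and less RNA per cell cannot be told apart. Of the day 2 arrays, the library labelled control 3 correlated at 0.9864 to 0.9867 with its own group and at up to 0.997 with the PD169316 arrays, and the library labelled PD169316 1 at 0.98 to 0.9831 with its own group and at up to 0.9939 with the controls. The files do not show whether these labels were exchanged, which would change what each day 2 value means, and all libraries are used as labelled. The day 2 differences described are given with and without both.

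Promoter sequences from RefSeq (GRCr8) were found for 39 of the 47 genes and 20 of the 23 tested. Shown are the 250 bases before the annotated start for *Syt1*, the member called with PD169316, for the neighbours *Vamp5* and *Vamp8* on chromosome 4, which changed most among the broadly expressed vesicle SNAREs, and for *Vamp1*, which rose most among the neuronal members. Capitals mark matches, on either strand, to the cyclic AMP response element TGACGTCA, the AP-1 site TGANTCA, the GC box GGGCGG, the E-box CAGCTG and the Sox motif AACAAT.
*Syt1*, chr7:46244214-46244463, minus strand: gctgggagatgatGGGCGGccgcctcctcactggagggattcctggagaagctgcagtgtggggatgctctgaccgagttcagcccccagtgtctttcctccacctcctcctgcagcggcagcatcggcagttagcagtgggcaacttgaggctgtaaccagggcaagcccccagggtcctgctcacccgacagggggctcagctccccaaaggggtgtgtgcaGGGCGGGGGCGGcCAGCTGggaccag
*Vamp1*, chr4:159698644-159698893, plus strand: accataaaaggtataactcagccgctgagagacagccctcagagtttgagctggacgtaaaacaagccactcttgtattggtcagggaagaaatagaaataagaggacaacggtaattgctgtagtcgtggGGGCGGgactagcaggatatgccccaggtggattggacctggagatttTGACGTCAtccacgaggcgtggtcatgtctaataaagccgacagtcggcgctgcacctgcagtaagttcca
*Vamp5*, chr4:105993248-105993497, minus strand: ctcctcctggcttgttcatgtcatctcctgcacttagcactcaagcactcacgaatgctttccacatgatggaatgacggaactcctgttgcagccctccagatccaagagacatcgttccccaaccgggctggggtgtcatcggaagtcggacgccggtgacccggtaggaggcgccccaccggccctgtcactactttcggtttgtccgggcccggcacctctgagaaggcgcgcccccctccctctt
*Vamp8*, chr4:106005643-106005892, minus strand: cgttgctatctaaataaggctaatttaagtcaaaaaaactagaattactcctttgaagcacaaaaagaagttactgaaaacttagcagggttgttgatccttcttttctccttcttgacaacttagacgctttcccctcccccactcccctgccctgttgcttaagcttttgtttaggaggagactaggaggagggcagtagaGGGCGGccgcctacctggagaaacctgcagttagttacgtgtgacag
*Vamp1* held the response element, starting 71 bases before the start site, and was the only 1 of 20 tested genes to do so, against 1.59% of all 33469 promoters. GC boxes were found in 16 of the 20, among them *Syt1*, *Vamp1* and *Vamp8*, and in 25 of the 39, against 30.5% of all promoters. No AP-1 match was found in the promoters of the members, against 6.34% of all, and *Vamp5* held none of the 5 motifs. The set of all promoters was not filtered for detection, unlike the 20, so its percentages are no matched background and show no enrichment in the members. A match is a description of the letters, not of a bound factor.

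Much of the neuronal release machinery was not detected. Of 26 probes for members known mainly from neurons or neuroendocrine cells, 9 were tested and 14 were detected on no array, among them those for *Stx1a*, the target-membrane syntaxin of the synapse, and for *Syn1* and *Syn2*, which tether synaptic vesicles. *Cplx1*, a complexin that binds the assembled complex, was detected on 3 of 18 arrays, and *Syt2* and *Syt9*, calcium sensors like synaptotagmin 1, on none. Of 24 probes for the other members, 15 were tested, 14 of them on every array, and 5 were detected on no array. No named probe was found for *Cplx2*, *Snap23* or *Snap29*. The 26 probes left out included 7 that were detected on 1 to 3 arrays, and no value of theirs enters any count below.

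**Figure D1:**
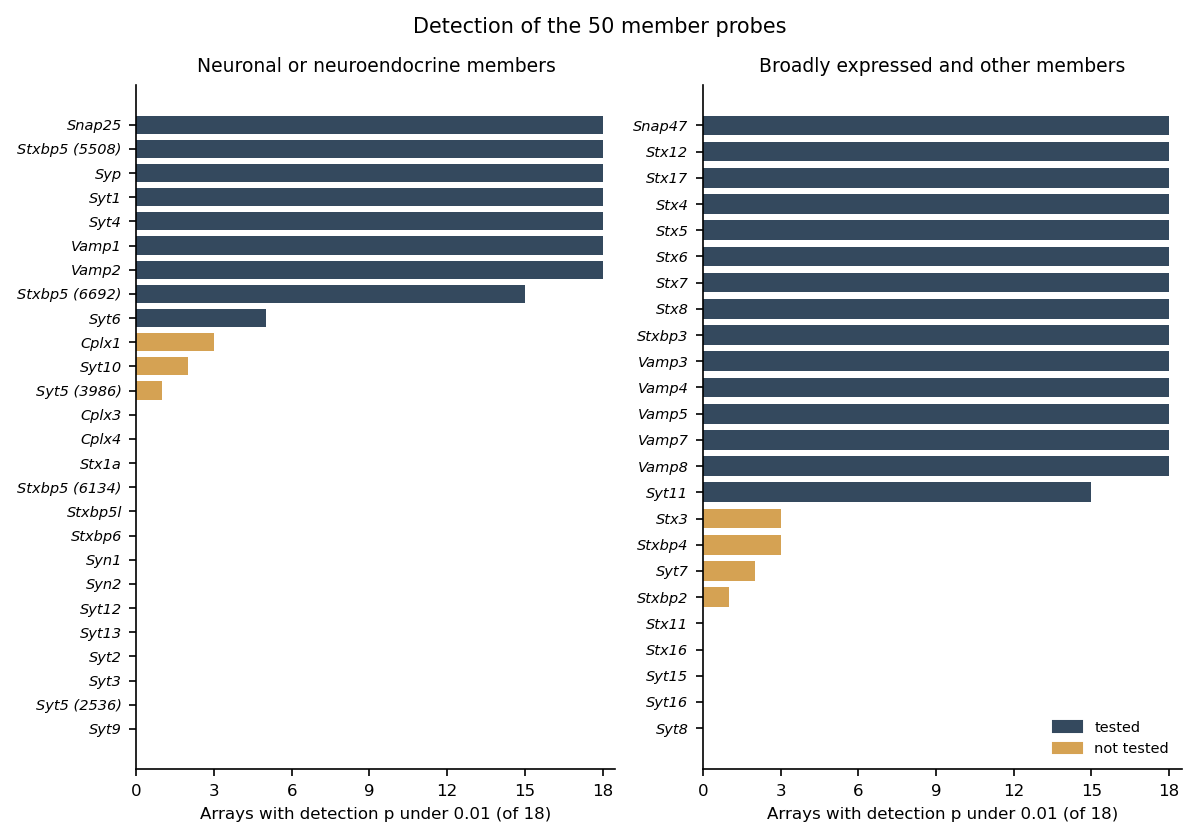
Number of the 18 arrays (x axis) on which each of the 50 member probes (y axis) had a detection p under 0.01, for neuronal or neuroendocrine members at left and the others at right, with the last digits of the probe where a gene has several. Dark bars are the 24 probes tested, and 14 neuronal and 5 other probes have no bar because they were detected on no array.

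After 1 day of PD169316, *Syt1* was the 1 member called of 24, as higher, and 0 were called lower, where 6.59% of all probes tested were called higher and 4.48% lower. *Syt1* encodes synaptotagmin 1, the calcium sensor of fast transmitter release. Its log2 intensities were 11.19, 11.24 and 10.98 with PD169316, against 10.56, 10.26 and 10.39 in controls, and the groups did not overlap. The difference was 0.73 (standard error 0.10, adjusted p = 0.0001479), or 1.66-fold. It stayed between 0.65 and 0.81 in the 30 alternative settings and missed the threshold with the deposited, unnormalized values (adjusted p = 0.09496).

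Other neuronal members of the core machinery were not called at day 1. *Snap25*, which encodes a target-membrane SNARE of the synapse, had 7.44, 7.49 and 7.48 with PD169316 and 7.49, 7.08 and 6.89 in controls (difference 0.31, standard error 0.13, adjusted p = 0.1532). Without day 1 control 1, the highest control value, the difference was 0.48 and was called, as it was with array weights. *Syp*, encoding the vesicle membrane protein synaptophysin, had 9.68, 9.65 and 9.62 with PD169316, all above the control values of 9.36, 9.26 and 9.55, but the difference of 0.26 was not called (standard error 0.17, adjusted p = 0.3676). *Vamp2*, encoding the principal vesicle SNARE of the brain, had 8.03, 7.78 and 8.0 with PD169316 against 7.82, 7.93 and 8.01 in controls. Its difference was 0.01 with a 95% interval of -0.22 to 0.25, and its sign turned without day 1 PD169316 1, PD169316 3 or control 1 and with array weights.

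A pair of neuronal members lay below control at day 1. *Vamp1*, a vesicle SNARE that replaces VAMP2 at many spinal and brainstem synapses, had 7.10, 7.18 and 7.15 with PD169316, against 8.02, 7.86 and 7.74 in controls. The difference was -0.73 (standard error 0.24, adjusted p = 0.06457), the same size as that of *Syt1* in the other direction. *Syt4*, a synaptotagmin of neurons and neuroendocrine cells that is induced by activity, had 6.03, 5.90 and 6.32 with PD169316 and 6.59, 6.59 and 6.65 in controls (difference -0.52, standard error 0.31, adjusted p = 0.2989). The PD169316 and control arrays did not overlap for either gene.

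Among the 9 neuronal probes tested, 6 differences were positive, with a median of 0.06, and among the other 15 probes 4 were positive, with a median of -0.07. The neuronal median is the value of *Syt6*, which was detected on 1 of 3 day 1 PD169316 arrays and 0 of 3 day 1 controls. The positive differences also include *Vamp2* at 0.01, whose sign was not stable, and *Stxbp5* enters by a probe of each sign (0.17 and -0.15). The median over all probes tested was -0.0045. Arrays of the groups did not overlap for 4 members that were higher and 5 that were lower, where 20.8% of all probes lay wholly higher and 20.7% wholly lower. These counts describe the members and were given no test of their own.

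The broadly expressed members closest to a call were lower. *Vamp5*, encoding a vesicle SNARE first described in muscle, had 10.22, 10.19 and 10.43 with PD169316, against 10.86, 10.93 and 10.85 in controls (difference -0.60, standard error 0.21, adjusted p = 0.08215). *Stxbp3*, encoding the partner of the plasma membrane syntaxin 4, had 12.28, 12.28 and 12.25 with PD169316, against 12.85, 12.74 and 12.74 in controls (difference -0.50, standard error 0.17, adjusted p = 0.06744). Each PD169316 array lay below every control array for both genes. *Stx7*, a late endosomal syntaxin, lay higher, at 11.98, 12.03 and 11.96 with PD169316 against 11.82, 11.64 and 11.71 in controls (difference 0.27, standard error 0.11, adjusted p = 0.1261).

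**Figure D2:**
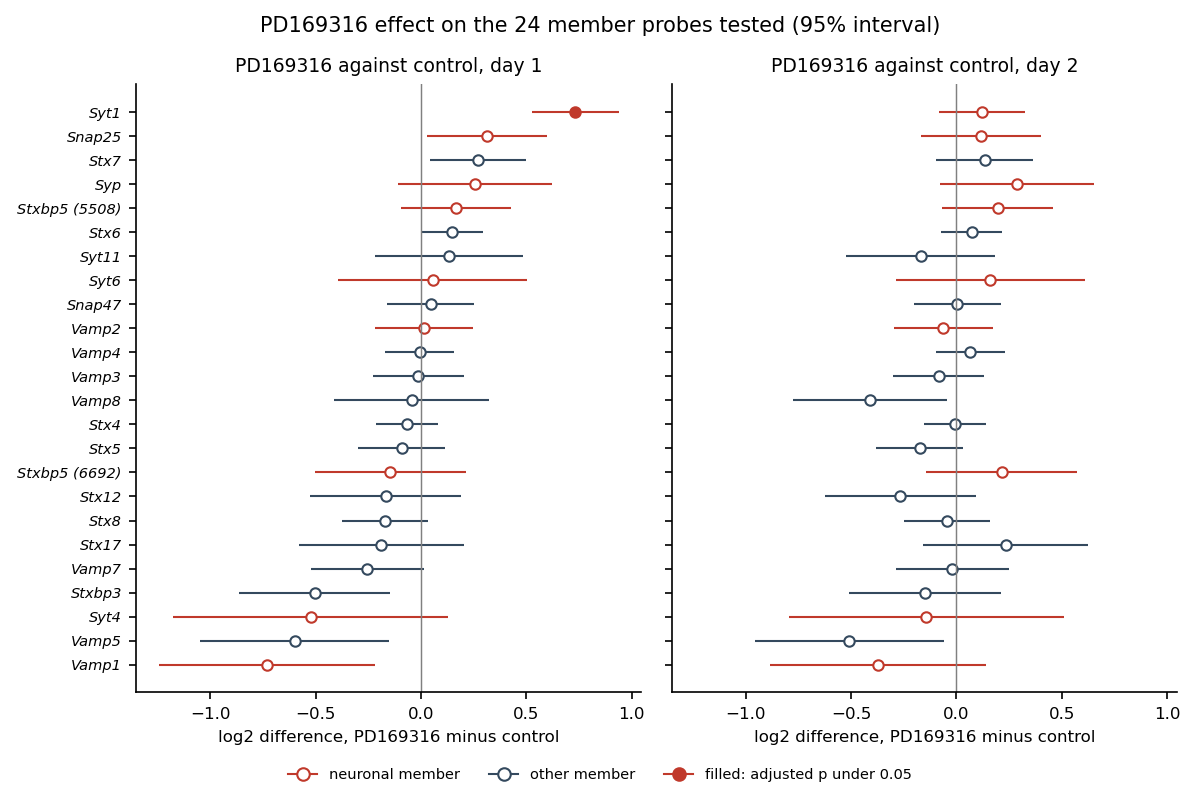
Log2 difference of each of the 24 member probes tested, PD169316 minus control, at day 1 (left) and day 2 (right), with the 95% interval of the limma fit. Red marks neuronal and blue other members, and the filled point, *Syt1* at day 1 with 0.73, is the 1 difference with an adjusted p under 0.05.

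The standard errors at day 1 pool the scatter of the 6 groups, so that the day 2 arrays enter them too. Without the day 2 libraries that stand apart, the differences at day 1 were the same and 6 members were called, *Syt1* and *Stx7* as higher and *Vamp1*, *Vamp5*, *Syt4* and *Stxbp3* as lower, where 23.3% of all probes were called. The adjusted p was then 0.00205 for *Vamp1*, 0.0006045 for *Vamp5*, 0.01903 for *Syt4*, 0.0001554 for *Stxbp3* and 0.0283 for *Stx7*. The same 6 were called without all day 2 libraries and with only the arrays compared. Thus *Syt1* was the only neuronal member called higher at day 1 in these fits, beside *Vamp1* and *Syt4* called lower.

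Markers of other cells moved with PD169316 as well. Of 25 neuron markers, 17 were tested, and 4 were higher at day 1 (*Gad1* by 0.88, *Uchl1* by 0.61, *Stmn3* by 0.40 and *Celf4* by 0.35) and 0 lower, beside 6.59% and 4.48% of all probes. Of the 13 not called, 4 had a difference below 0, down to -0.47. The summed linear level of the 17 was 22960 to 24260 with PD169316, against 18880 to 19430 in controls. *Slc17a7* and *Chga* were detected on no array, *Slc17a6* on 6 and *Gad2* on 7 of 18. *Rbfox3* was detected on 16, *Map2* on 17, and *Nefl*, *Stmn2*, *Tubb3* and *Gad1* on 18. The summed level of neuron markers was higher still on day 0, at 27680 to 29500, where *Syt1* was at 9.99, 9.97 and 10.11. Myelin markers summed to 43640 to 45150 with PD169316 against 60160 to 62640 in controls, astrocyte markers to 32030 to 33980 against 42280 to 44840, and markers of cycling cells to 8048 to 8940 against 3066 to 3183. Progenitor markers summed to 42180 to 44010 with PD169316 against 50700 to 53450 in controls, and microglia markers to 12020 to 15280 against 12210 to 13300. Their part in the differences of the members was not tested.

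At day 2 of PD169316, 0 of 24 members were called in limma, as were 0% of all probes, and 2 members, *Vamp5* and *Vamp8*, had an unadjusted p under 0.05 (469 of all probes). *Syt1* was at 10.56, 10.41 and 10.43 with PD169316 and at 10.29, 10.35 and 10.39 in controls (difference 0.12, standard error 0.10, adjusted p = 0.888). It was the 1 member whose PD169316 arrays all lay above the controls, where 3.14% of all probes did so. *Vamp5* was at 11.62, 10.97 and 10.86 with PD169316 and at 11.94, 11.95 and 11.10 in controls, so that the highest treated and the lowest control values were those of the libraries that stand apart.

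Without these libraries 9 members were called at day 2, where 23.6% of all probes were called. *Syp* was higher by 0.59 (adjusted p = 0.01286) and *Stx7* by 0.33 (adjusted p = 0.02934). The members called lower were *Vamp5* (-1.03), *Syt4* (-0.90), *Vamp1* (-0.89), *Vamp8* (-0.79), *Stxbp3* (-0.57), *Stx12* (-0.55) and *Stx5* (-0.30). Both libraries were picked for their distance from their own group, so this is no independent test of PD169316 at day 2. *Syt1* was not among those called, at 0.10 (adjusted p = 0.6081).

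The effect of PD169316 on *Syt1* differed between the days. It was smaller at day 2 than at day 1 by 0.61 on the log2 scale (difference of the effects -0.61, standard error 0.14, adjusted p = 0.01898), and *Syt1* was the 1 of 24 members called in this test, where 3.85% of all probes were called. The call was lost on leaving out day 1 PD169316 1, day 1 PD169316 2, day 1 control 2 or day 2 PD169316 2, with values from -0.58 to -0.54, and with the deposited values (-0.48). It was kept without the libraries that stand apart (-0.64).

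**Figure D3:**
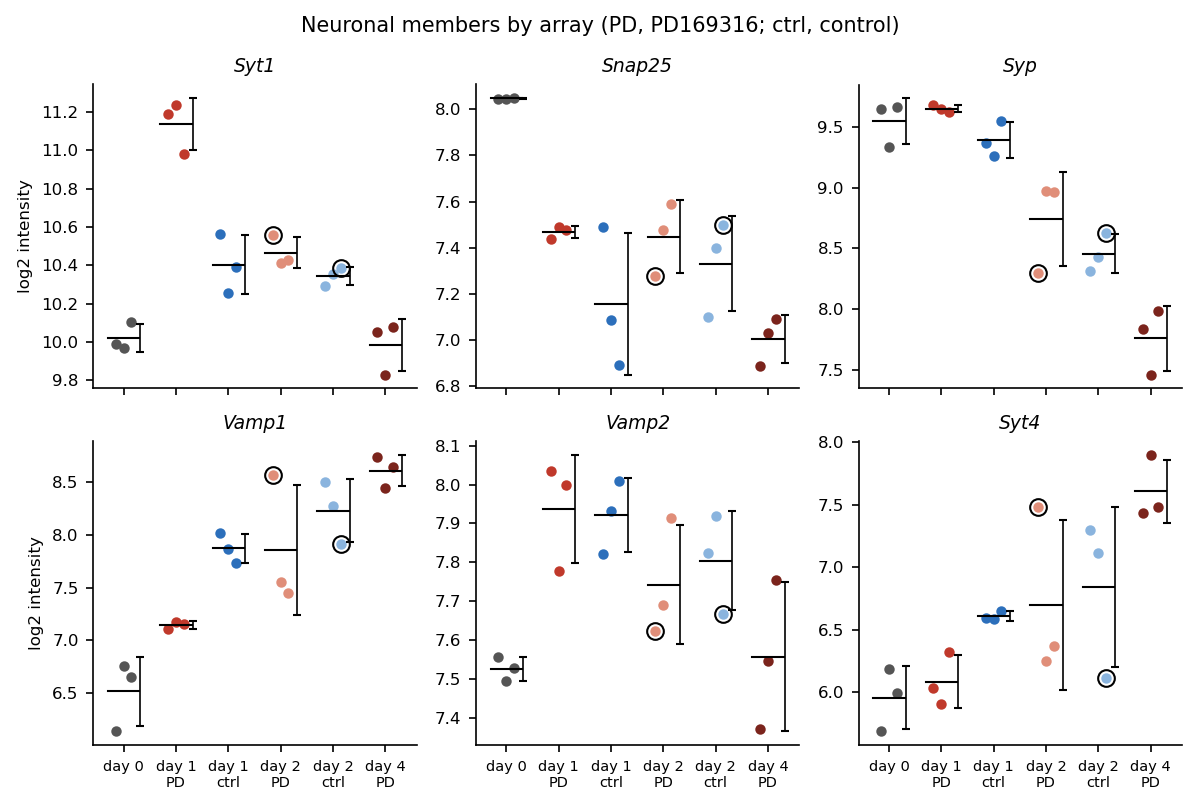
Log2 intensity (y axis) of 6 neuronal members on each array, by group (x axis), with the mean as a line and the SD as a bar (n = 3); circled points are the libraries labelled day 2 PD169316 1 and day 2 control 3. *Syt1* peaks at 10.98 to 11.24 on day 1 with PD169316, the means of *Snap25* and *Syp* are lowest on day 4, and those of *Vamp1* and *Syt4* are highest there.

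Through differentiation without PD169316, 6 members were higher and 3 lower on day 1 than on day 0, where 13.8% and 13.3% of all probes were, and 7 were higher and 3 lower on day 2, where 20.6% and 21.6% were. With the deposited, unnormalized values, 2 were higher and 4 lower on day 1 and 4 higher and 9 lower on day 2. With those values most calls over all probes were lower on both days, as given below. The counts with them therefore show no trait particular to the members. Without the libraries that stand apart, 11 members were higher and 5 lower on day 2, where 51.0% of all probes were called, and the 10 called with them were among these. The neuronal members moved in both directions. *Vamp1* was at 6.13, 6.75 and 6.65 on day 0, at 8.02, 7.86 and 7.74 in day 1 controls and at 8.51, 8.27 and 7.91 in day 2 controls. The last exceeded day 0 by 1.72 (standard error 0.24, adjusted p = 5.064e-05), or 3.29-fold, and by 1.88 without the libraries that stand apart. *Syt4* exceeded day 0 by 0.88 in day 2 controls (standard error 0.31, adjusted p = 0.03034), a call lost without day 0 array 1 or 3 or without day 2 control 1 or 2, with values down to 0.66. Without the libraries that stand apart it was 1.25 (adjusted p = 2.504e-05), and with the deposited values 0.21 and not called.

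*Snap25* and *Syp* fell. *Snap25* was at 8.05 on each of the day 0 arrays, at 7.49, 7.08 and 6.89 in day 1 controls and at 7.10, 7.40 and 7.50 in day 2 controls, which was 0.72 below day 0 (difference -0.72, standard error 0.13, adjusted p = 0.0005828). *Syp* was at 9.64, 9.33 and 9.67 on day 0, at 9.36, 9.26 and 9.55 in day 1 controls and at 8.31, 8.43 and 8.63 in day 2 controls (difference from day 0 -1.09, standard error 0.17, adjusted p = 0.0001365). No day 2 control array reached the lowest day 0 array for either gene. The differences were -0.80 for *Snap25* and -1.17 for *Syp* without the libraries that stand apart, both called.

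*Syt1* and *Vamp2* were higher early. *Syt1* exceeded day 0 by 0.38 in day 1 controls (adjusted p = 0.009026) and by 0.32 in day 2 controls (adjusted p = 0.01402), and by 1.12 on day 1 with PD169316 (adjusted p = 9.074e-07). *Vamp2* exceeded day 0 by 0.40 in day 1 controls (adjusted p = 0.01527), a call lost without day 0 array 2 or day 1 control 3, and by 0.41 on day 1 with PD169316 (adjusted p = 0.009905). With the deposited values, in which the median of all probes lay 0.25 to 0.28 below day 0, the sign turned for *Vamp2* in day 1 controls (-0.02) and for *Syt1* in day 2 controls (-0.06). *Syt1* in day 1 controls was then at 0.05 (adjusted p = 0.8615) and *Vamp2* with PD169316 at 0.0003 (adjusted p = 0.9983), neither called, while *Syt1* with PD169316 remained called at 0.70 (adjusted p = 0.01034). Without the libraries that stand apart, *Syt1* exceeded day 0 by 0.30 in day 2 controls and was called.

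Among the broadly expressed members, *Vamp5* and *Vamp8*, neighbours in the genome, rose most. *Vamp5* was at 8.85, 8.86 and 8.81 on day 0, at 10.86, 10.93 and 10.85 in day 1 controls and at 11.94, 11.95 and 11.10 in day 2 controls. The day 2 controls exceeded day 0 by 2.82 (standard error 0.21, adjusted p = 1.279e-07), or 7.09-fold. *Vamp8*, encoding a SNARE of late endosomes and secretory granules, was at 8.16, 8.31 and 8.26 on day 0, at 8.60, 8.82 and 8.76 in day 1 controls and at 9.68, 9.58 and 8.98 in day 2 controls (difference from day 0 1.17, standard error 0.17, adjusted p = 7.95e-05). Both genes were above every day 0 array on all later arrays. The day 2 differences were 3.11 for *Vamp5* and 1.38 for *Vamp8* without the libraries that stand apart.

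*Stx6*, a syntaxin of the trans-Golgi network and endosomes, was at 9.75, 9.67 and 9.79 on day 0, at 10.31, 10.27 and 10.40 in day 1 controls and at 10.56, 10.52 and 10.46 in day 2 controls (difference from day 0 0.77, standard error 0.07, adjusted p = 5.559e-07). *Stx5*, the Golgi syntaxin, exceeded day 0 by 0.49 in day 2 controls (adjusted p = 0.0008712) and by 0.58 without the libraries that stand apart, but by 0.07 with the deposited values (adjusted p = 0.7211), so that the call was lost there. *Stx6* was called in both of these settings, at 0.80 and 0.35. *Stx17*, which serves the fusion of autophagosomes with lysosomes, fell. It was at 6.47, 6.42 and 6.96 on day 0, at 5.97, 6.22 and 5.95 in day 1 controls and at 5.85, 6.23 and 5.83 in day 2 controls (difference from day 0 -0.64, standard error 0.18, adjusted p = 0.01095), and without day 0 array 3, its highest, the difference was -0.47 and not called. It was -0.57 and called without the libraries that stand apart.

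**Figure D4:**
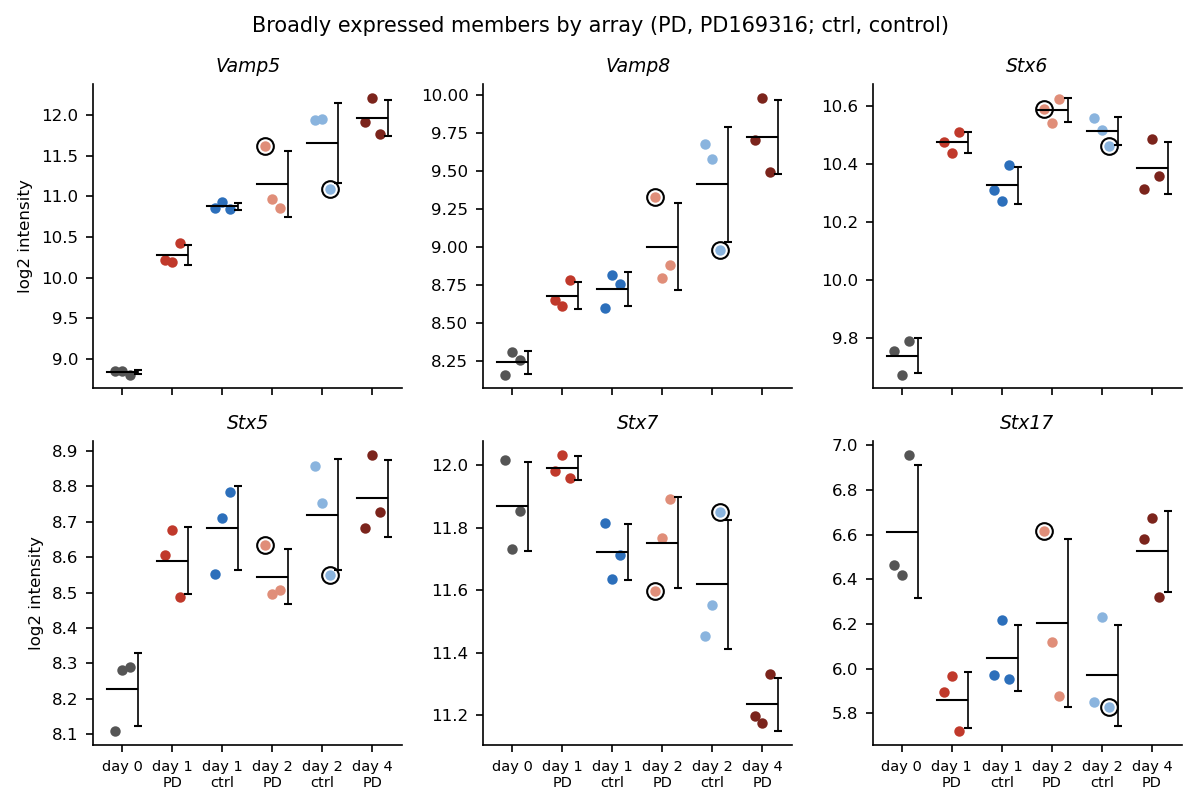
Log2 intensity (y axis) of 6 broadly expressed members on each array, by group (x axis), with the mean as a line and the SD as a bar (n = 3); circled points are the libraries labelled day 2 PD169316 1 and day 2 control 3. *Vamp5* and *Vamp8* lie above their day 0 arrays in every later group, whereas *Stx7* is lowest on day 4, at 11.17 to 11.33.

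With PD169316 for 1 day, 5 members were higher and 3 lower than on day 0, where 16.2% and 14.9% of all probes were. With the deposited values 2 were higher and 6 lower, and most calls over all probes were lower too, as given below. The 8 called with normalized values were among the 9 members called in day 1 controls, which were set against the same day 0 arrays. *Vamp1*, the ninth, exceeded day 0 by 0.63 with PD169316 (adjusted p = 0.05813) and by 1.36 in controls (adjusted p = 0.0008496). The difference of 0.63 was called without the libraries that stand apart (adjusted p = 0.002609), without all day 2 libraries (adjusted p = 0.005061) and with only the arrays compared (adjusted p = 0.01539). It was 0.57 and called with array weights, and 0.08 and not called with the deposited values. *Vamp5* exceeded day 0 by 1.44 with PD169316 (adjusted p = 0.0001215) and by 2.04 in controls (adjusted p = 1.093e-05).

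On day 4 of PD169316, 9 members were higher and 5 lower than on day 0, where 23.2% and 27.5% of all probes were. With the deposited values 5 were higher and 4 lower, whereas most calls over all probes were lower, as given below. *Vamp5* was at 11.92, 12.21 and 11.78, which exceeded day 0 by 3.13 (standard error 0.21, adjusted p = 2.237e-08), or 8.76-fold. *Vamp1*, at 8.74, 8.45 and 8.64, exceeded it by 2.10 (adjusted p = 4.346e-06). *Syt4* followed at 7.44, 7.90 and 7.48, which was 1.65 above day 0 (adjusted p = 0.0003945), and *Vamp8* at 9.70, 9.98 and 9.50, which was 1.48 above it (adjusted p = 5.158e-06). These are the same 4 members that were furthest above day 0 in day 2 controls. *Stxbp3* exceeded day 0 by 0.49 (adjusted p = 0.0236), and the SNAREs of myelin protein transport *Vamp7* and *Vamp3* by 0.47 (adjusted p = 0.005625) and 0.34 (adjusted p = 0.01056).

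*Syp* was furthest below day 0 on day 4, at 7.83, 7.46 and 7.99 (difference -1.79, standard error 0.17, adjusted p = 7.693e-07). *Snap25* followed at 6.89, 7.03 and 7.09 (difference -1.04, adjusted p = 1.363e-05). *Stx7* was at 11.20, 11.17 and 11.33 (difference -0.63, adjusted p = 0.0001848). All arrays of day 4 lay below those of day 0 for these genes. *Stxbp5*, encoding tomosyn, which binds syntaxin and holds back fusion, lay below day 0 by 1 of its probes (-0.53, adjusted p = 0.002181). Another, detected on 1 of the day 4 arrays, differed by -0.36 (adjusted p = 0.0922), and the third was not tested. *Vamp4*, a SNARE of the trans-Golgi network, lay 0.20 below day 0 (difference -0.20, adjusted p = 0.04519), a call lost on leaving out any 1 of 13 libraries and kept without day 1 control 1, day 2 PD169316 1 or 3, day 2 control 3 or day 4 PD169316 2.

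*Syt1* on day 4 was at 10.05, 9.83 and 10.08, with a difference from day 0 of -0.04 (95% interval -0.24 to 0.17), and its arrays overlapped with those of day 0. Without a day 4 control, the part of PD169316 in the day 4 values cannot be told apart from that of time or of growth factor removal. Myelin markers summed to 99680 to 127700 on day 4 against 42300 to 45300 on day 0, and neuron markers to 17480 to 18970 against 27680 to 29500. Their part in the differences of the members was not tested.

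**Figure D5:**
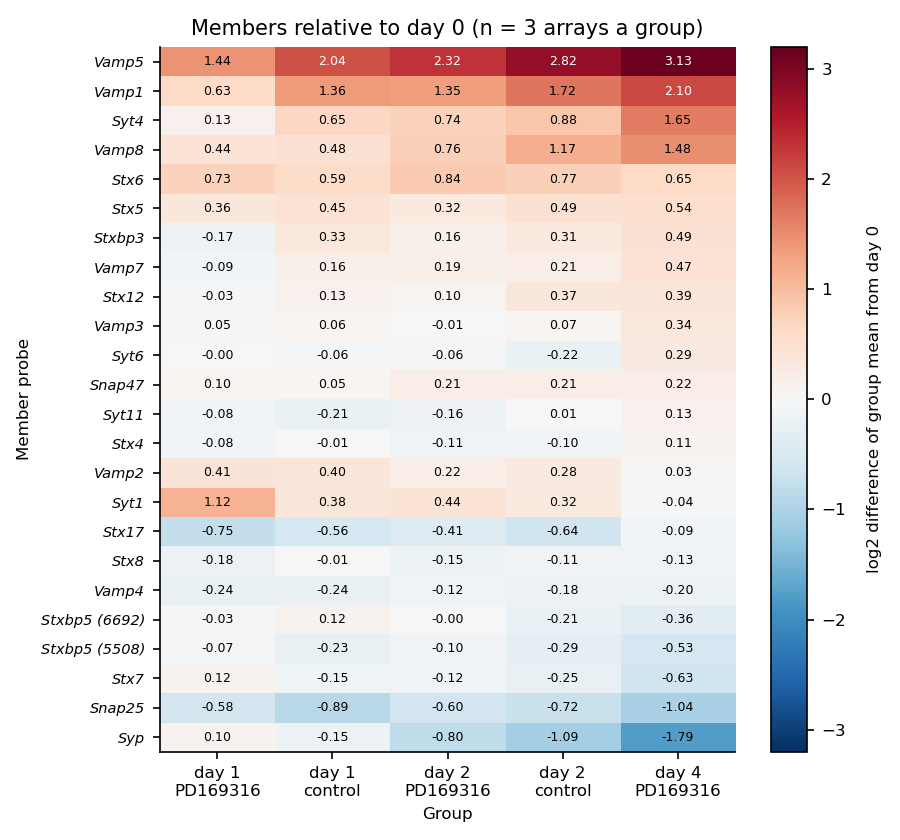
Difference of the group mean log2 intensity from day 0 for each of the 24 member probes tested (rows, ordered by day 4), in 5 groups (columns, n = 3 arrays each). *Vamp5*, *Vamp1*, *Syt4* and *Vamp8* stand at the top with 3.13 to 1.48 on day 4, and *Syp* at the bottom with -1.79, while *Syt1* stands apart on day 1 with PD169316 at 1.12.

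In the fit with all libraries, the remaining tested members were not called in any of these comparisons. They were *Snap47*, a relative of *Snap25* found in many cells, *Stx4*, the endosomal syntaxins *Stx8* and *Stx12*, *Syt6*, *Syt11* and the second tested probe of *Stxbp5*. Without the libraries that stand apart, *Snap47* (0.28) and *Stx12* (0.44) were called higher in day 2 controls than on day 0. *Stx12* was then called lower with PD169316 than in controls at day 2 (-0.55) and higher on day 4 than on day 0 (0.39). The second probe of *Stxbp5*, detected on 1 of the day 4 arrays, was called lower on day 4 (-0.36). *Syt6*, detected on 5 of 18 arrays, was not above background on day 0 and was not called on day 4 against day 0 (adjusted p = 0.2712). Its day 4 mean was 1.09-fold the day 0 floor, and its arrays of day 0 and day 4 overlapped. The floor was the lowest detected signal of each day 0 array or its own, if higher. *Syt11*, a synaptotagmin that does not bind calcium, was detected on 15 of 18 arrays, and its values lay between 5.17 and 6.19. *Stx4*, the plasma membrane syntaxin that STXBP3 binds, was between 11.86 and 12.22.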

How the data were processed

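The authors labelled total RNA, hybridized it to RatRef-12 BeadChips and deposited for each probe a mean bead intensity, neither background-subtracted nor normalized, a detection p-value against negative control beads, and the number of beads (other). The deposited value table equals these intensities (405414 of 405414 values). The FlexArray test named in the methods was not used here, but its thresholds of 1.25-fold and an unadjusted p were.

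The neqc function (limma 3.58.1, R 4.3.3) served for background correction from the detection p-values, quantile normalization and log2 transformation, with 16 added as offset. Probes detected at p under 0.01 on all 3 arrays of a group were kept (10574). Of 22523 probes, 13793 carry a symbol in the array annotation. One limma model held the 6 group means, with 12 residual and 3.16 prior degrees of freedom, and p-values were adjusted over all probes kept (Benjamini-Hochberg). On simulated data with 10574 probes for day 1, 50% of 100 log2 changes of 0.5 and 92% of 100 changes of 1 were recovered, and 9 unchanged probes were called. Only those probes were changed there, whereas 11.1% of all probes were called at day 1 in the data, so recovery in the data may differ. Precision is limited by the 3 arrays of a group.

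Members, the neuronal class and the marker lists were chosen with earlier results of these data known. Some genes are not reported here. Named by rule were members called at day 1, the neuronal core genes, and those with the largest changes from day 0 or between the days; *Stxbp3*, *Vamp3*, *Vamp7* and others outside it were chosen after their values were seen. Alternatives were other background corrections, scalings, offsets and filters, only the arrays compared, a replicate block, array weights, the thresholds of the methods, and leaving out libraries. Figures used Python 3.11.15, pandas 2.3.3 and matplotlib 3.10.9.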

Additional observations from a re-analysis of the deposited data

Results flagged for a closer look

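The response of *Syt1* to PD169316 differed between the days. PD169316 exceeded control by 0.73 at day 1 and by 0.12 at day 2 (log2), and limma's test of the difference between these effects gave -0.611 (adjusted p = 0.01898). All 3 PD169316 arrays lay above all 3 controls at both days. At day 2 the lowest PD169316 value was 10.41, and the highest PD169316 and control values, 10.56 and 10.39, were those of the libraries that stand apart. The call for the difference was lost on leaving out any 1 of 4 libraries and with the deposited values. The groups of 3 arrays are too small for a test of single outlying arrays.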

How the results depend on the processing

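For PD169316 at day 1, where 1 member was called, 2 were without background correction or with scaling to the 75th percentile, 0 with the deposited values, 6 with only the arrays compared, 8 with array weights, 4 at the thresholds of the methods and 6 without the day 2 libraries that stand apart or without all day 2 libraries. Leaving out 1 library gave 1 to 4 (4 without day 2 PD169316 1, 3 without day 2 control 3, 2 without day 1 control 1 or day 2 PD169316 3). For PD169316 at day 2, where 0 were called, 12 were with array weights, 2 at the thresholds of the methods and 9 without the libraries that stand apart, and 0 on leaving out any 1 library. Array weights count down arrays far from their labelled group. For day 2 control against day 0 (10), array weights gave 18 and the fit without the libraries that stand apart 16. For day 4 against day 0 (14), the deposited values gave 9. For the difference between the days (1), the deposited values gave 0, array weights 4, the fit without the libraries that stand apart 2, and leaving out 1 library 0 to 1. The cause of these shifts was not tested. For PD169316 at day 1 and day 2, the share of all probes called also rose without the libraries that stand apart, as given above. The counts of this paragraph stand without that share, so they show no trait particular to the members. With the deposited values the median of all probes moved by -0.251 in day 1 controls and -0.267 with PD169316, and higher calls made up 4.88% of all calls in day 1 controls, against 50.8% in the fit reported, 9.84% against 48.8% in day 2 controls, 5.84% against 52.0% on day 1 of PD169316 and 33.1% against 45.7% on day 4.

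Of 1579 pairs of a named difference and an alternative, 1481 kept direction and call, 63 lost the call, 24 gained it and 11 turned. With the deposited values these were *Vamp2* in day 1 control against day 0 (-0.0167), *Syt1* in day 2 control against day 0 (-0.06057) and *Stx5* in day 1 PD169316 against day 0 (-0.01877). For PD169316 at day 1, array weights gave -0.03679 for *Vamp2* and 0.02493 for *Vamp4*. Leaving out 1 library gave *Vamp2* -0.03494 to 0.09467, *Vamp4* -0.03129 to 0.03446 and *Vamp8* -0.106 to 0.001187. Calls for *Vamp4* on day 1 against day 0 were lost without any 1 of 5 libraries, the day 0 arrays and 2 of the day 1 group, that for *Stx17* in day 1 controls without day 0 array 3, day 1 control 1 or day 1 control 3, and that for *Stx5* with PD169316 without day 0 array 1 (adjusted p = 0.05147).

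Same-numbered arrays deviated together in no consistent way (correlations of -0.102 to 0.0869 at day 1 and -0.534 to 0.558 at day 2). The day 2 groups include the libraries that stand apart. With so few arrays per group, these correlations cannot decide whether same-numbered arrays shared a preparation, and the labels do not state it. A replicate block left the counts at 1, 0, 9, 10, 8, 14 and 1 for the 7 comparisons, lost *Vamp4* on day 4 (-0.1968) and called *Stx12* there.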

Other observations

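Genes outside the chosen symbols that serve the same vesicles moved in both directions. Of 18 tested genes of other synaptic vesicle proteins, *Synpr*, which encodes the synaptophysin relative synaptoporin, was the 1 called higher at day 1 with PD169316 (1.02, adjusted p = 0.0003064), and *Slc18a3*, the vesicular acetylcholine transporter, the 1 called lower (-0.55, adjusted p = 0.004994). These made up 11.1% of the 18, the same share as the 11.1% called of all probes tested. On day 4, *Rab3c*, a small GTPase of secretory vesicles, exceeded day 0 by 2.42 (adjusted p = 2.77e-05), while *Synpr* lay below it (-2.67, adjusted p = 2.762e-09).

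Of 24 tested genes of other SNAREs and fusion cofactors, 1 was called at day 1 of PD169316 (4.17%), where 11.1% of all probes were called. It was *Rims2*, which encodes an active-zone protein (-0.42, adjusted p = 0.03386). On day 4, 3 were higher and 7 lower than on day 0, beside 23.2% and 27.5% of all probes. *Cadps*, a priming factor of dense-core vesicles, lay lowest (-1.78, adjusted p = 4.446e-08), and *Nsf*, the ATPase that takes SNARE complexes apart, was also lower (-0.55, adjusted p = 0.0006726).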
